A study of Homo sapiens with 10 samples.

Results

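The first 10 Mb of chromosome 17, at the tip of its short arm, was described by the RNA-DNA hybrids mapped there in U2OS cells. Overlapping or touching peaks of 5 DRIP libraries were merged, and the merged regions starting within bases 1 to 10000000 (hg38) were kept. They numbered 1475 of the 177004 merged regions of the series, and 9165 more lay on the rest of chromosome 17. The interval was chosen by the number of peaks, which differed there between 2 mutant lines. The values that separate the lines are therefore given as a description, with no test.

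In DRIP-seq, hybrids of RNA and DNA are recovered from sonicated nucleic acids with the antibody S9.6 and their DNA is sequenced. U2OS is a human osteosarcoma cell line. The WT libraries came from cells labelled WT, and the SCAN1 libraries from the lines SCAN1#1 and SCAN1#2, both labelled as carrying TDP1 H493R. Experiment 1 held WT and SCAN1#1, and experiment 2 held WT, SCAN1#1 and SCAN1#2. A single library stood for each group in each experiment, so SCAN1#2 was measured in 1 library only. No treatment was given in the labels, and how the lines were derived or whether each is 1 clone was not stated in the sources used here. The experiments used different lots of the antibody. The 5 input samples were not analysed here, so no peak value was set against the amount of DNA over the interval. Nothing in the labels says that the 2 experiments used separately grown cells beyond their experiment number, so a spread between libraries may be technical.

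An R-loop forms when a nascent transcript pairs with its DNA template and displaces the other strand. R-loops are common where transcription starts and ends, and runs of G in the displaced strand favour them. TDP1 releases topoisomerase 1 that has become trapped on DNA, an event tied to transcription, and the H493R change causes SCAN1, spinocerebellar ataxia with axonal neuropathy. The study concerns the repair of DNA breaks linked to transcription in cells with this mutation. The distal short arm of chromosome 17 is dense in short housekeeping genes and also holds a cluster of olfactory receptor genes.

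Upstream sequences show the range of hybrid signal in the interval. EIF4A1, which encodes a helicase of translation initiation, was covered by peaks in every library. OVCA2, a serine hydrolase gene, and KCTD11, an adaptor gene of a cullin ubiquitin ligase, differed between libraries. OR1A1, an olfactory receptor gene, had no peak in any library. The 250 bases before each gene's start are printed 5′ to 3′ on the gene's strand from RefSeq on GRCh38.p14, with runs of at least 4 G in capitals.
EIF4A1: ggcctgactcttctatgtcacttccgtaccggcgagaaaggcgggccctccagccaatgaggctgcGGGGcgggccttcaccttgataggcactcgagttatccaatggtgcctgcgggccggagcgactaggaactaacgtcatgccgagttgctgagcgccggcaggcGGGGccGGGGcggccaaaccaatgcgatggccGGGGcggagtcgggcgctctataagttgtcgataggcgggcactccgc
OVCA2: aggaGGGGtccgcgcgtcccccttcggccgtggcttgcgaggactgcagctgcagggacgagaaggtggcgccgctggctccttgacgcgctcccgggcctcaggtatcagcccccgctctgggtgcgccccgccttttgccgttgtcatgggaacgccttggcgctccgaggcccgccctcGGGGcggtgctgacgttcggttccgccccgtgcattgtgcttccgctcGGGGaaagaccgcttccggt
KCTD11: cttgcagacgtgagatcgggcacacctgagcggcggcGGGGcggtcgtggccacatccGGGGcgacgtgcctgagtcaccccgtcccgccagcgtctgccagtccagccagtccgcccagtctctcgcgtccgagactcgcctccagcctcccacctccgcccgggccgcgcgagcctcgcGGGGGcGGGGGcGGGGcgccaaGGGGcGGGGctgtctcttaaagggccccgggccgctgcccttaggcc
OR1A1: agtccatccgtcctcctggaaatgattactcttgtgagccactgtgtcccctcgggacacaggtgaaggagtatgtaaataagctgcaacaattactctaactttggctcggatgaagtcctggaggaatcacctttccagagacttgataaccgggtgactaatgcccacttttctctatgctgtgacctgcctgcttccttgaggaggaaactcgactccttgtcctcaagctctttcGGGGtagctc
All of these lie on the plus strand, EIF4A1 at chr17:7572575-7572824, OVCA2 at chr17:2041772-2042021, KCTD11 at chr17:7351912-7352161 and OR1A1 at chr17:3207417-3207666. G and C made up 65.2% of the EIF4A1 stretch, 70.8% of the OVCA2 stretch, 75.6% of the KCTD11 stretch and 49.6% of the OR1A1 stretch. The KCTD11 stretch held 7 runs of G, that of EIF4A1 held 4, that of OVCA2 held 3 and that of OR1A1 held 1. The EIF4A1 stretch was covered at 100% in all 5 libraries. The OVCA2 stretch was covered at 100% in WT of experiment 1 and in both SCAN1#1 libraries, at 30.8% in SCAN1#2 and at 0 in WT of experiment 2. The KCTD11 stretch was covered at 100% in both SCAN1#1 libraries, at 9.20% in WT of experiment 1, and at 0 in WT of experiment 2 and in SCAN1#2. In experiment 2 the KCTD11 stretch was thus fully covered in SCAN1#1 and bare in both other libraries.

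Signal over the interval was highest in SCAN1#1 in both experiments, while SCAN1#2 lay beside WT. WT held 764 peaks there in experiment 1 and 530 in experiment 2. SCAN1#1 held 905 and 1013 peaks, and SCAN1#2 held 538. Whole lists ran from 63456 peaks for SCAN1#1 in experiment 1 to 110745 for SCAN1#1 in experiment 2, so the 905 peaks came from the shortest list. The lists give no read depth.

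Counted as merged regions with a peak, WT had 614 and 438, SCAN1#1 had 788 and 922, and SCAN1#2 had 443 of the 1475. As a share of each library's own regions these were 0.819% for WT in experiment 1 (95% exact binomial interval 0.756% to 0.886%), 1.41% for SCAN1#1 in experiment 1 (1.32% to 1.51%), 0.518% for WT in experiment 2 (0.470% to 0.568%), 0.873% for SCAN1#1 in experiment 2 (0.818% to 0.931%) and 0.525% for SCAN1#2 (0.478% to 0.576%). The intervals cover counting error within a library only and compare nothing between lines.

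Peaks covered 570 kb of the interval in WT and 753 kb in SCAN1#1 of experiment 1. In experiment 2 they covered 402 kb in WT, 804 kb in SCAN1#1 and 369 kb in SCAN1#2. As a share of all peak bases of the library, the interval held 1.16% and 1.82% in experiment 1, and 0.725%, 1.20% and 0.717% in experiment 2. SCAN1#1 was therefore 1.57 times WT in experiment 1 and 1.66 times WT in experiment 2, and SCAN1#2 was 0.988 times WT. The share in SCAN1#2 was 0.596 times that in SCAN1#1. Within an experiment each ratio rests on 1 library per group.

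The genome was divided into 306 windows of 10 Mb to place these ratios. The log2 ratio of the share in SCAN1#2 to that in SCAN1#1 was -0.75 over the interval, the lowest of the 306 windows, whose median was 0.05. For SCAN1#1 against WT, 4 windows lay higher than the interval's 0.65 in experiment 1, and 3 lay higher than its 0.73 in experiment 2. For SCAN1#2 against WT, 196 windows lay higher than the interval's -0.02, which was 0.06 with lists of equal length. The next 10 Mb of chromosome 17 gave log2 ratios of 0.18 and 0.08 for SCAN1#1 against WT, -0.03 for SCAN1#2 against WT and -0.12 for SCAN1#2 against SCAN1#1. The 2 comparisons of experiment 2 against WT share the WT library.

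**Figure D1:**
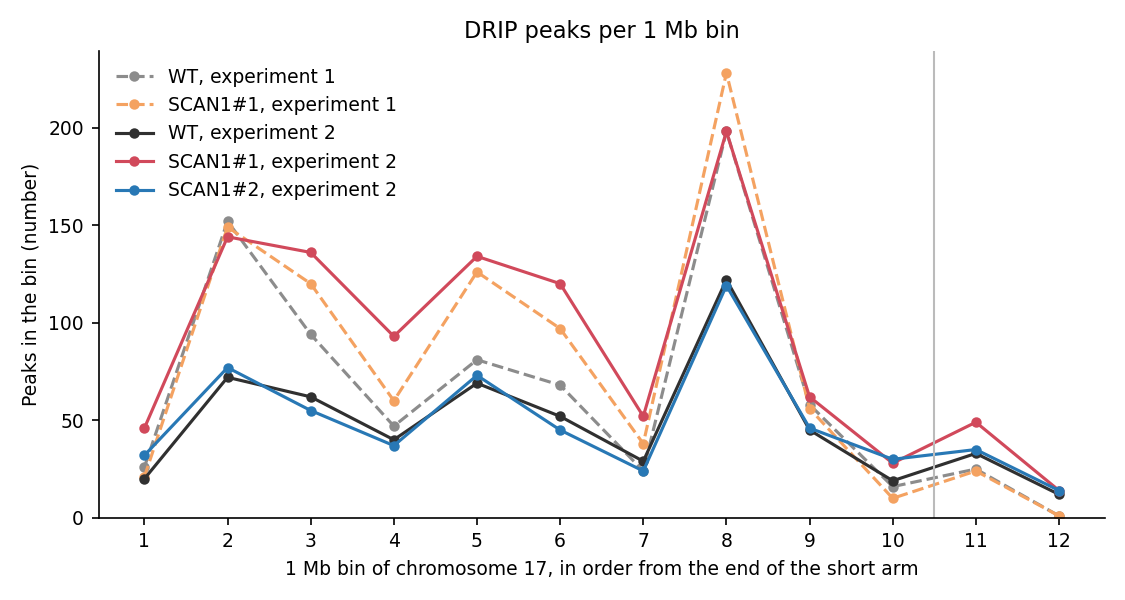
Number of DRIP peaks (y axis) in each 1 Mb bin of chromosome 17 (x axis, counted from the end of the short arm) in the 5 libraries, with dashed lines for experiment 1 and solid lines for experiment 2. The grey line marks the end of the interval. In experiment 2, SCAN1#2 (blue) runs beside WT (black), and SCAN1#1 (red) stands above both from the first bin to the ninth. In experiment 1, SCAN1#1 (orange) has fewer peaks than WT (grey) in bins 1, 2, 9, 10 and 11.

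The difference was carried by the second to eighth megabases and had faded by the tenth. In bins of 1 Mb, to which 500 bases were added before taking ratios, SCAN1#1 exceeded WT by at least 0.5 on the log2 scale in 7 of 10 bins in experiment 1, where 7.31% of the 2135 bins tested across the genome did so. In experiment 2 it did so in 7 of 10, against 6.32% of all bins, and in both experiments in 6 of 10, against 2.53%. SCAN1#2 lay below SCAN1#1 by at least 0.5 in 8 of 10 bins, against 3.93% of all bins. Since the line contrast chose the interval, nothing is read from these counts. In no bin of the interval was SCAN1#1 below WT by 0.5 in experiment 1 or 2 (22.8% and 5.43% of all bins), or SCAN1#2 above SCAN1#1 by 0.5 (6.70%). SCAN1#2 passed 0.5 against WT in 0 of 10 bins in either direction (8.57% of all bins higher, 3.61% lower).

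The lowest SCAN1#2 to SCAN1#1 values were -1.29 in the sixth megabase, -1.20 in the fourth and -1.15 in the third. The fourth megabase had 47 and 60 peaks in WT and SCAN1#1 of experiment 1, and 40, 93 and 37 peaks in WT, SCAN1#1 and SCAN1#2 of experiment 2. It begins with the olfactory receptor cluster. The sixth megabase had 68 and 97 peaks in experiment 1, and 52, 120 and 45 in experiment 2. In both bins SCAN1#1 had the most peaks of its experiment.

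The highest values were 0.39 in the tenth megabase, -0.33 in the ninth and -0.55 in the first. The tenth had 16 and 10 peaks in experiment 1, and 19, 28 and 30 in experiment 2, so the order of the lines turned there. In the first megabase SCAN1#1 had a log2 ratio to WT of -0.13 in experiment 1 and 0.78 in experiment 2, and the experiments differed in sign. The eighth megabase was the richest, with 198 and 228 peaks in experiment 1 and 122, 198 and 119 in experiment 2.

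**Figure D2:**
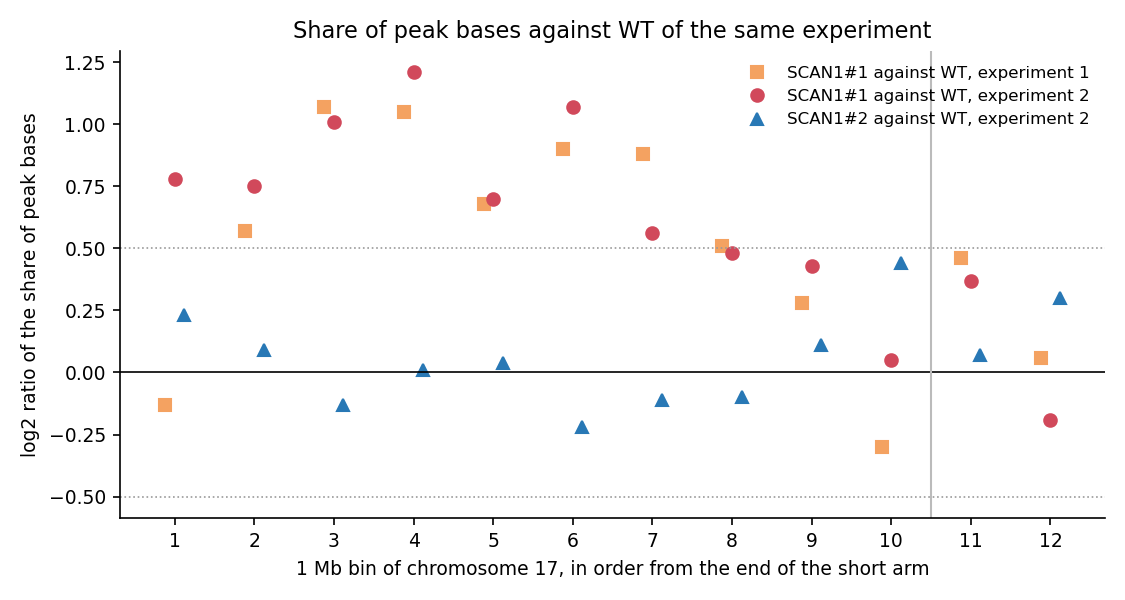
log2 ratio of the share of peak bases against WT of the same experiment (y axis) in each 1 Mb bin of chromosome 17 (x axis, counted from the end of the short arm), with squares and circles for SCAN1#1 in experiments 1 and 2 and triangles for SCAN1#2. Dotted lines mark 0.5 and -0.5 and the grey line the end of the interval. SCAN1#1 reaches 1.07 and 1.01 in the third bin and 1.05 and 1.21 in the fourth, and SCAN1#2 stays between -0.22 and 0.44 in the 10 bins.

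At steps of 500 kb an excess of SCAN1#1 over WT in both experiments ended near base 8500000. It was present in both again just beyond the interval. From 8000001 to 8500000 there were 53 and 52 peaks in experiment 1, and 34, 53 and 35 in experiment 2, with log2 ratios to WT of 0.33 and 0.55 for SCAN1#1. From 8500001 to 9000000 there were 5 and 4 peaks, and 11, 9 and 11, with ratios of -0.49 and -0.38. From 9000001 to 9500000 there were 8 and 6, and 10, 18 and 16. There the experiments differed in sign, with ratios of -0.48 and 0.40. Peaks were few from there to the end of the interval, which limits how closely an edge is placed. Just inside the end of the interval, the last 500 kb held 8 and 4 peaks in experiment 1, and 9, 10 and 14 in experiment 2. Just outside it, the next 500 kb held 16 and 20, and 24, 32 and 25, with log2 ratios to WT of 0.76 and 0.33 for SCAN1#1. From 10500001 to 11000000 the signs differed again, at -0.73 and 0.42.

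Most regions of the interval were found in few libraries. A peak was present in 1 library in 694 of the 1475 regions, in 2 in 296, in 3 in 187, in 4 in 132 and in all 5 in 166. Regions with a peak in all 5 were 11.3% of the interval and 12.4% of the series. Regions with a peak in SCAN1#1 of experiment 1 alone numbered 238, or 16.1% against 5.43% in the series. Those with a peak in SCAN1#1 of experiment 2 alone numbered 256, or 17.4% against 13.3%.

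Both SCAN1#1 libraries and no other shared 77 regions, 5.22% against 1.38% in the series. Both SCAN1#1 libraries but not SCAN1#2 had a peak in 199, or 13.5% against 4.82%. SCAN1#2 had a peak without either SCAN1#1 library in 61, or 4.14% against 12.7%. Regions in both WT libraries and no SCAN1 library numbered 8, or 0.542% against 1.39%. Regions in all 3 SCAN1 libraries and no WT library numbered 26, which is 1.76% against 0.945%. The patterns that set SCAN1#1 apart follow from the choice of the interval.

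**Figure D3:**
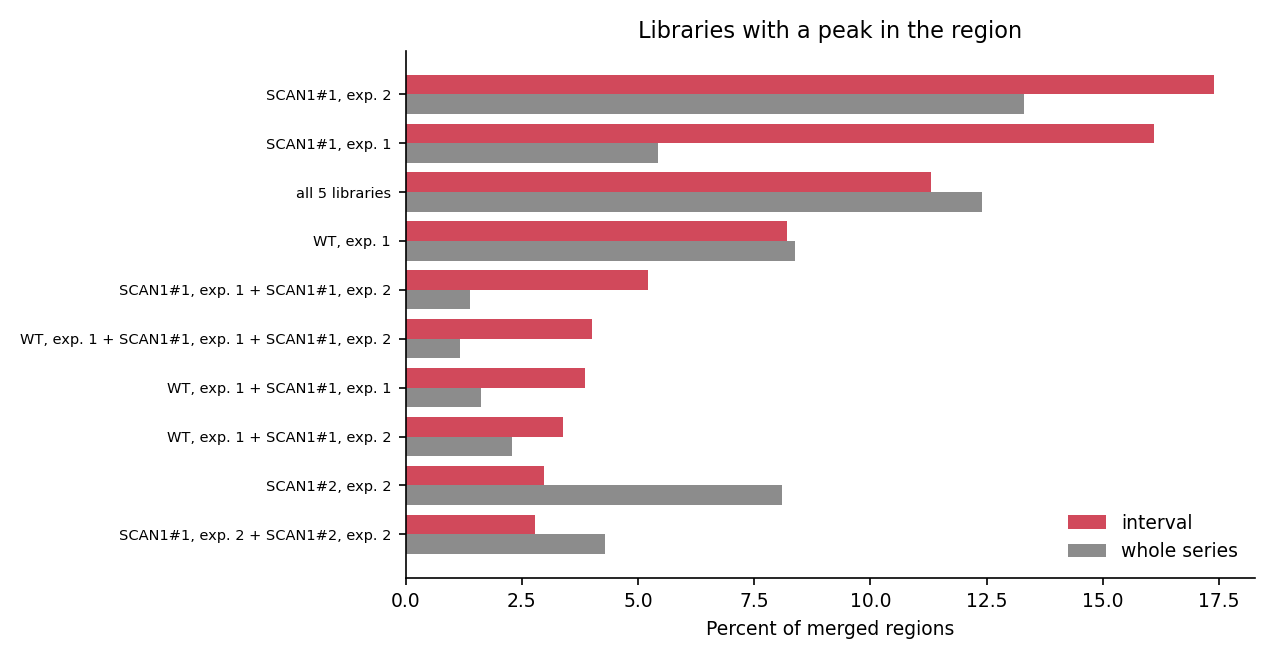
Percent of merged regions (x axis) with a peak in exactly the named libraries (y axis, the 10 most common patterns of the interval), in the interval (red) and the whole series (grey). Regions seen in SCAN1#1 of experiment 1 alone make up 16.1% of the interval and 5.43% of the series, and regions in all 5 libraries 11.3% and 12.4%.

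Regions found in a single library were narrower and weaker than those in all 5. Their median width was 320 bases (314 in the series), against 1836 bases for those in all 5 (1149 in the series). A merged region joins the peaks of its libraries, so those in all 5 are wider by construction. The peaks themselves had median widths of 297 to 335 bases when seen in 1 library only. In regions shared by all 5 the peaks had median widths of 614 to 1023 bases. The deposited fold enrichment, the caller's ratio over its background estimate, was below the median of its own list in 68.6% to 77.3% of the peaks seen in 1 library only. Of the peaks in regions shared by all 5 it was below that median in 17.5% to 43.4%.

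The shared regions were also covered over more bases in SCAN1#1. On average a shared region had 2217 bases under peaks in WT and 2678 in SCAN1#1 of experiment 1. In experiment 2 it had 1683 in WT, 2505 in SCAN1#1 and 1505 in SCAN1#2. SCAN1#1 was the higher library in both experiments, so the extra bases did not lie only in regions without a peak elsewhere. These values come from the lists as deposited, where SCAN1#1 has the shortest list in experiment 1 and the longest in experiment 2. No such values were computed over the series, and the excess of SCAN1#1 follows from the choice of the interval. These 166 regions held 64.5% and 59.0% of the interval's peak bases in WT and SCAN1#1 of experiment 1, and 69.5%, 51.7% and 67.8% in WT, SCAN1#1 and SCAN1#2 of experiment 2.

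The strongest region was the same in all 5 libraries, chr17:7558517-7581906. It is 23390 bases wide and spans TNFSF12 and TNFSF13 (cytokines of the TNF family), SENP3 (a SUMO protease of the nucleolus), EIF4A1 and CD68 (a lysosomal protein of macrophages). Its highest fold enrichment was 56.7 and 70.5 in WT and SCAN1#1 of experiment 1, and 64.4, 95.2 and 82.2 in WT, SCAN1#1 and SCAN1#2 of experiment 2, the highest of the interval within each list. Peaks covered 21665 and 23350 of its bases in experiment 1, and 17369, 21905 and 13287 in experiment 2. SCAN1#2 had the fewest bases covered, split over 11 peaks.

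Other strong regions, ranked by mean fold enrichment, lay over KIAA0753 and TXNDC17 (chr17:6635836-6642024), inside RPH3AL (chr17:314590-317900), over DLG4, ACADVL, DVL2 and PHF23 (chr17:7217695-7238260), over ACAP1 and KCTD11 (chr17:7344824-7352841) and over SPNS2 and MYBBP1A (chr17:4530248-4550287). All had a peak in each library. The region over SPNS2 and MYBBP1A had 15278 and 19244 bases under peaks in experiment 1, and 9307, 17743 and 9384 in WT, SCAN1#1 and SCAN1#2 of experiment 2. There SCAN1#2 and WT were close and SCAN1#1 was higher.

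Among the 199 regions with a peak in both SCAN1#1 libraries and none in SCAN1#2, the widest lay at MYO1C and INPP5K (chr17:1491824-1496002), an unconventional myosin gene and a phosphoinositide phosphatase gene. It had 2573 and 4179 bases under peaks in experiment 1, and 807 in WT, 1464 in SCAN1#1 and 0 in SCAN1#2 of experiment 2. Next came a region inside CLUH (chr17:2692303-2695778), with 2098 and 3313 bases in experiment 1, and 1176, 2505 and 0 in experiment 2. Both regions also had peaks in both WT libraries. So did the other 4 of the widest 6, which lay inside OR3A2, DLG4, METTL16 and SERPINF1.

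Regions of the interval lay mostly in genes, but protein-coding genes also made up 67.9% of its bases. An excess of regions in genes was not tested. Of the 1475 regions, 858 (58.2%) lay in the interior of a protein-coding gene and 277 (18.8%) within 1 kb of a gene's start or end, against 51.1% and 9.61% in the series. A further 275 (18.6%) were intergenic, against 29.2%. A region counted as lying at a gene end if any of its bases did, so wide regions fall there more readily. Regions in all 5 libraries lay at gene ends in 51.8% of cases, against 28.3% for such regions in the series. Their median widths were 1836 and 1149 bases, and the shares were not adjusted for width. Stretches within 1 kb of a gene's ends made up 8.15% of the bases of the interval, a share of bases that is not comparable with these shares of regions.

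The share of the interval's peak bases at gene ends overlapped between the genotypes. It was 26.4% in WT and 26.0% in SCAN1#1 of experiment 1. In experiment 2 it was 27.9% in WT, 23.3% in SCAN1#1 and 30.0% in SCAN1#2. SCAN1 libraries averaged 26.4% ± 3.38 (SD, n = 3), and WT libraries reached a mean of 27.2% ± 1.07 (SD, n = 2), a difference of -0.738 percentage points (exact two-sided permutation test, p = 0.800, where 10 splits allow no p below 0.1). The lines lay on opposite sides of WT in experiment 2. Without WT of experiment 2 the difference was 0.0170, and without SCAN1#1 of experiment 2 it was 0.839.

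Around gene starts SCAN1#1 lay above WT on both sides of the start, in 39 of 40 bins of 250 bases in experiment 1 and in 40 of 40 in experiment 2, and SCAN1#2 lay above WT in 17 of 40. Over the rest of the genome these counts were 1, 40 and 14 of 40, so in experiment 2 SCAN1#1 exceeded WT in every bin there too. Of the interval's protein-coding genes, 163 had a start and strand in the RefSeq promoter table. Coverage was highest 250 to 500 bases after the start, at 36.3% and 41.2% in WT and SCAN1#1 of experiment 1, and at 28.6%, 43.3% and 34.1% in WT, SCAN1#1 and SCAN1#2 of experiment 2. The same bin averaged 21.5%, 21.0%, 20.7%, 25.6% and 25.3% over the 15649 genes of the rest of the genome. Between 5000 and 4750 bases before the start the interval had 14.7%, 20.4%, 8.62%, 16.1% and 9.25%, in the same order, so SCAN1#1 was above WT away from the start too.

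**Figure D4:**
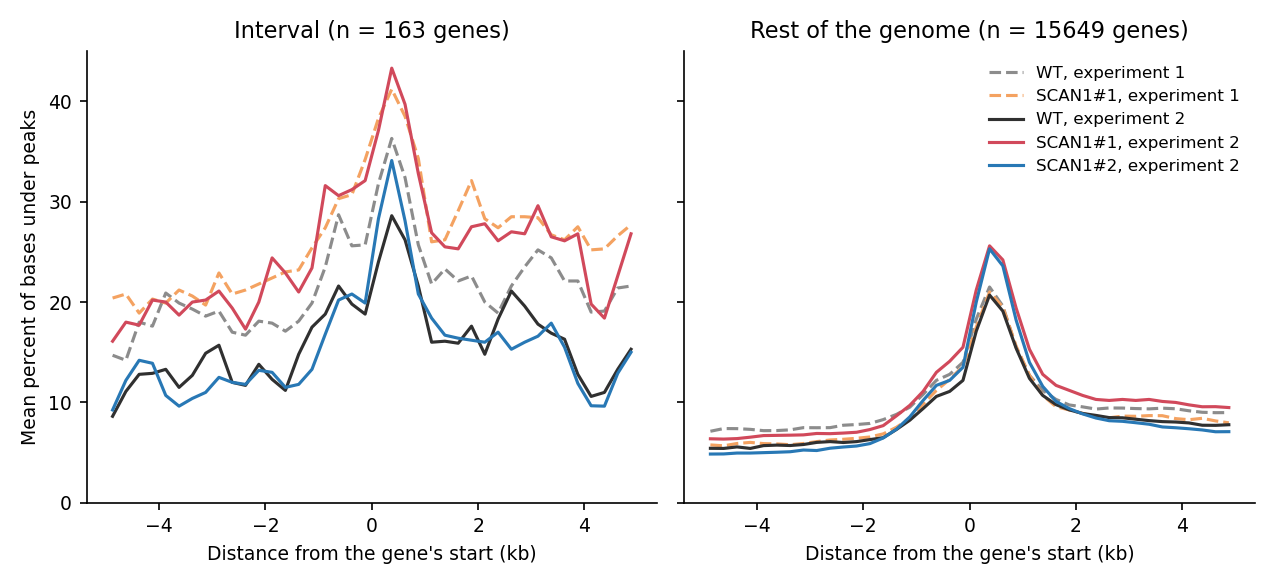
Mean percent of bases under peaks (y axis) by distance from the gene's start in kb (x axis, 250-base bins, positive into the gene), for genes of the interval (left) and of the rest of the genome (right), 1 line per library. All libraries peak just after the start, and in the interval SCAN1#1 reaches 41.2% and 43.3% against 28.6% to 36.3% in the other libraries.

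Promoter windows of 300 bases (250 before to 50 after the start) had a peak in 57 and 73 of the 163 genes in experiment 1 (35.0% and 44.8%, against 20.6% and 19.5% of all promoters). In experiment 2 they had one in 48, 68 and 49 (29.4%, 41.7% and 30.1%, against 18.8%, 22.9% and 21.0%). A peak was present in all 5 libraries at 31 and in none at 74, against 1828 and 10837 of all 15812. The median GC content was 65.7% at the 31 and 63.0% at the 74, against 62.7% over the 15812 promoters of the table. Among the 15812 it was 65.7% at those with a peak in every library and 61.0% at those without one. The motif GGGG, searched on the gene's strand, was present in 90.8% of the interval's windows and in 80.6% of all windows. In the interval it was present in 90.3% of windows with a peak in every library and in 90.5% of those without one. Over all promoters these shares were 84.9% and 78.4%. CCCC, the same run on the other strand, was present in 83.4% of the interval's windows and 79.7% of all.

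Most small RNA genes of the interval had no peak in any library. The share of such genes over the genome was not computed, so nothing is read from these counts. Of the 16 microRNA genes of the interval, MIR22 and MIR324 lay wholly under peaks in all 5 libraries and 10 had no peak in any. MIR6864 and MIR6865 were fully covered in every library but SCAN1#2, and MIR6776, which lies inside CLUH, was covered in WT of experiment 1 and in both SCAN1#1 libraries. MIR6883 was at 0 in WT of experiment 1, at 61.5% in SCAN1#2 and fully covered in the others. The mature products of MIR22 and MIR324, and 2 pairs without a peak that share a seed, show which families the interval holds; capitals mark the seed, bases 2 to 8, in sequences from RefSeq on GRCh38.p14.
hsa-miR-22-3p: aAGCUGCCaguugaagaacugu
hsa-miR-324-5p: cGCAUCCCcuagggcauuggug
hsa-miR-195-5p: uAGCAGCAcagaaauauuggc
hsa-miR-497-5p: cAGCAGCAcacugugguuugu
hsa-miR-132-3p: uAACAGUCuacagccauggucg
hsa-miR-212-3p: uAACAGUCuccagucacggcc
The first of the pairs shares the seed AGCAGCA and the other AACAGUC, and all of these genes lie on the minus strand. A peak over a microRNA gene reports a hybrid at that locus and no level of the microRNA. Of 18 tRNA genes, 16 had no peak in any library. TRI-AAT4-1 was fully covered in WT of experiment 1 and in both SCAN1#1 libraries, and TRS-AGA2-6 in SCAN1#1 of experiment 1 only. Of 11 snoRNA genes, 7 had no peak in any library, and SNORA67, in the EIF4A1 locus, was fully covered in all 5. SNORA48, SNORD10 and SNORD91B were covered at 75.6% to 100% in WT of experiment 1 and both SCAN1#1 libraries. In WT of experiment 2 and in SCAN1#2 they were at 0 to 17.8%.

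Gene coverage, the percent of a gene and 1 kb on each side that lies under peaks, was computed for the 244 protein-coding genes of the interval. To compare libraries, each list was cut to its 63456 peaks of highest -log10 p. The 244 genes averaged 17.3% and 23.7% in WT and SCAN1#1 of experiment 1, and 10.8%, 18.2% and 10.8% in WT, SCAN1#1 and SCAN1#2 of experiment 2. All 19974 protein-coding genes averaged 8.87%, 9.08%, 6.78%, 7.75% and 6.54%. SCAN1#1 was above WT in both experiments in 129 of the 244 genes (52.9%), where 19.7% of all genes were, and below WT in both in 9 (3.69%), against 15.8%. SCAN1#2 was above WT in 83 (34.0%), against 34.6% of all genes. SCAN1#1 was above SCAN1#2 in 167 (68.4%), against 41.9%. With the lists as deposited, SCAN1#1 was above WT in both experiments in 132 genes (54.1%, against 20.1% of all genes) and below in 7 (2.87%, against 14.6%). SCAN1#2 was then above WT in 80 (32.8%, against 36.6%) and SCAN1#1 above SCAN1#2 in 195 (79.9%, against 56.0%). The counts that involve SCAN1#1 follow the contrast that chose the interval.

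**Figure D5:**
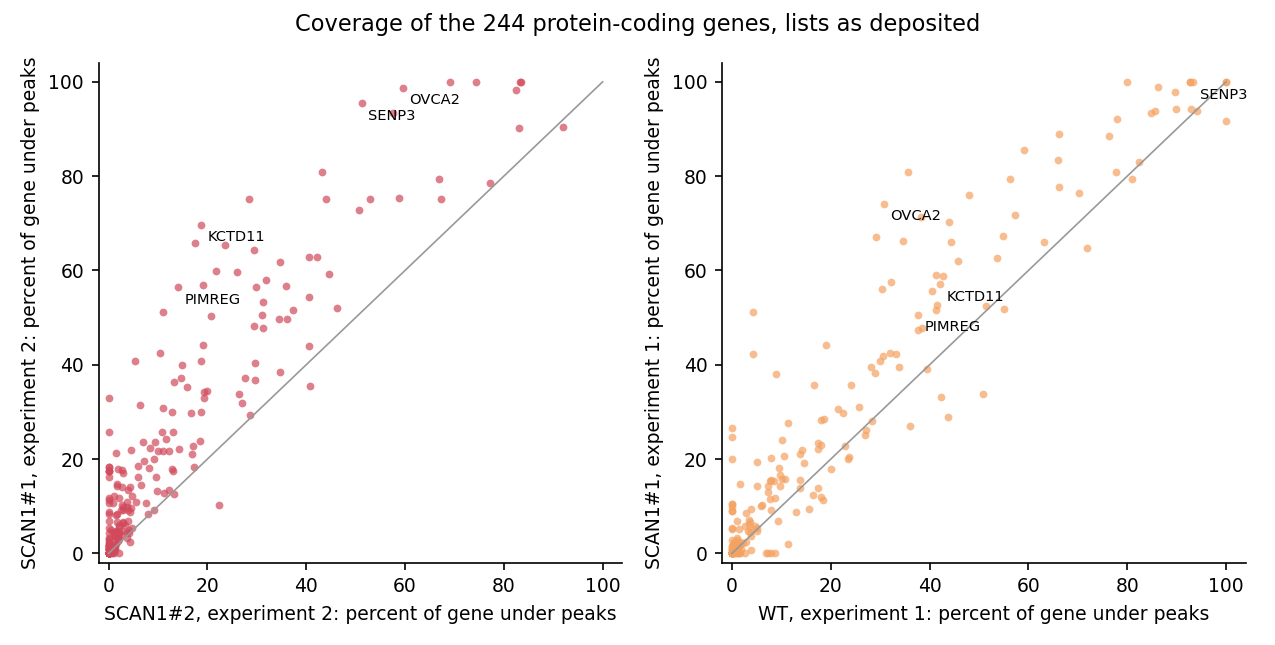
Percent of each of the 244 protein-coding genes, with 1 kb on each side, under peaks of the deposited lists. Left, SCAN1#1 (y axis) against SCAN1#2 (x axis) in experiment 2, and right, SCAN1#1 (y axis) against WT (x axis) in experiment 1; the grey line marks equal coverage. SCAN1#1 is the higher in 195 genes on the left and in 140 on the right.

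With both lines taken as 1 genotype, no gene of the interval passed the test. In limma, 153 of the 244 genes passed the filter of a mean of at least 2% and were tested among 8473 genes. Of the 8473, 0 (0%) had an adjusted p below 0.05, and the smallest adjusted p was 0.358 (Benjamini-Hochberg). At an unadjusted p below 0.05, limma gave 5 higher and 2 lower genes in the interval, and 165 higher (1.95%) and 131 lower over all genes. The 5 were HASPIN (a mitotic histone kinase), TIMM22 (a translocase of the mitochondrial inner membrane), RILP (an effector of lysosomal Rab GTPases), WRAP53 (a telomerase-binding protein of Cajal bodies) and LOC122526780. The 2 were TRPV1, the capsaicin receptor, and LOC124905375. The median difference between SCAN1 and WT was 3.57 percentage points over the 153 genes and 0.08 over all genes tested. Without SCAN1#1 of experiment 1 these medians were 0.59 and -0.19. The SCAN1 group includes SCAN1#1, the line that chose the interval, so nothing is read from the medians.

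With the experiment as a block, 0 genes of the interval passed limma's adjusted threshold (smallest adjusted p 0.741, 0% of all genes called), and limma's unadjusted p was below 0.05 for 11 genes higher in SCAN1, where 3.51% of all genes were, and for 2 genes lower. With SCAN1#1 alone against WT and the block, a fit added after the data were seen, 0 passed (0% of all genes called, smallest adjusted p 0.646). At an unadjusted p below 0.05 that fit gave 37 higher (24.2%, against 5.36% of all 8384 genes) and 1 lower of the 153, with 182 lower over all genes. It uses the line that chose the interval, so nothing is read from these counts.

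In the following values, libraries stand in the order WT and SCAN1#1 of experiment 1, then WT, SCAN1#1 and SCAN1#2 of experiment 2, and lists are of equal length. HASPIN lies within the bounds of the gene ITGAE, so its signal cannot be assigned to either. It was covered at 0%, 9.01%, 0%, 17.5% and 13.0%. Both WT libraries were at 0 and all 3 SCAN1 libraries above, a difference of 13.2 percentage points (SE 2.91) with an adjusted p of 1.00 in limma. RILP was covered at 0%, 42.2%, 0%, 26.3% and 8.06%, again with WT at 0. From the lists as deposited RILP stood at 4.16% in WT of experiment 1. WRAP53 was covered at 4.89%, 13.1%, 2.99%, 12.1% and 7.04%. LOC124905375 showed the reverse, at 8.79% and 10.9% in WT and 0 in the 3 SCAN1 libraries. Its difference of -9.86 points had an adjusted p of 0.358 in limma.

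Genes of highest mean coverage were PFN1 (profilin, which binds actin monomers), EIF4A1, LOC122526780, SOX15 (a transcription factor of the SOX family), TMEM88 (a membrane protein of Wnt signalling) and RNF167 (a ubiquitin ligase of endosomes). PFN1 was covered at 100%, 100%, 90.7%, 100% and 83.3%. EIF4A1 was covered at 100%, 100%, 89.9%, 100% and 74.3%. Neither genotype was apart from the other, since SCAN1#2 was the lowest library for both. SOX15 was covered at 92.9%, 94.2%, 85.2%, 100% and 69.1%, and TMEM88 at 85.7%, 93.8%, 86.5%, 98.3% and 76.0%, with SCAN1#2 lowest again. RNF167 was covered at 100%, 91.8%, 74.7%, 90.2% and 83.1%. There WT of experiment 1 was the highest and WT of experiment 2 the lowest.

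The 8 genes with the largest excess of SCAN1#1 over SCAN1#2 in experiment 2 were OVCA2, SENP3, KCTD11, DVL2, CLUH, PIMREG, OR1R1 and MYBBP1A. OVCA2 was covered at 30.8%, 74.2%, 0%, 98.8% and 32.3%. All 3 SCAN1 libraries exceeded both WT libraries, the 2 groups being close at 32.3% and 30.8%. The difference was 53.0 points (SE 22.3), with an adjusted p of 1.00 in limma. With the lists as deposited WT of experiment 2 stood at 51.1% and SCAN1#2 at 59.6%, and the groups still did not overlap. OVCA2 lies within the bounds of DPH1, a diphthamide synthesis gene, so the files cannot assign the signal to either. SENP3 was covered at 93.4%, 100%, 69.9%, 95.5% and 32.2%, with SCAN1#2 far below WT of its experiment. KCTD11 was covered at 42.1%, 57.1%, 12.6%, 69.7% and 11.9%, with SCAN1#2 and WT of experiment 2 side by side.

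DVL2, a transducer of Wnt signals, was covered at 92.7%, 100%, 25.8%, 71.0% and 24.1%. CLUH, which binds messenger RNAs of mitochondrial proteins, was covered at 56.8%, 85.5%, 38.6%, 59.1% and 15.1%. For both genes SCAN1#1 exceeded WT in each experiment and SCAN1#2 was the lowest library. PIMREG, a mitotic regulator, was covered at 37.7%, 50.6%, 34.6%, 56.4% and 14.1%. OR1R1, an olfactory receptor gene, was covered at 18.1%, 28.3%, 0%, 51.1% and 11.1%. MYBBP1A, a nucleolar protein gene, was covered at 54.5%, 79.5%, 16.0%, 60.2% and 20.2%. The WT value of experiment 2 was close to that of SCAN1#2 for MYBBP1A and not for PIMREG.

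The largest excess of SCAN1#2 over SCAN1#1 was smaller, and with the lists as deposited it turned to an excess of SCAN1#1 in 6 of the 8 genes, all but SAT2 and GLTPD2. RANGRF, a Ran-binding factor gene, was covered at 50.9%, 33.7%, 14.5%, 13.5% and 27.6%, and with the list as deposited SCAN1#1 of experiment 2 stood at 37.1%, above SCAN1#2. SAT2, of the spermidine acetyltransferase family, was at 0 in the first 4 libraries and 13.5% in SCAN1#2. GLTPD2 was covered at 0%, 24.7%, 32.5%, 35.4% and 40.7%. The others were C17orf100, SLC25A35, whose bounds contain RANGRF, PFAS (an enzyme of purine synthesis), CXCL16 (a chemokine) and SLC16A11 (a transporter of the monocarboxylate family). Their SCAN1#2 values lay between 3.84% and 26.5%, and all 5 turned with the lists as deposited.

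Genes were also ranked by their smallest excess of SCAN1 over WT across the 3 comparisons within experiments. The 6 in which it was largest were OVCA2, BACC1, RNF227, LOC122526780, C1QBP and OR1R1. BACC1, a subunit gene of a chromatin complex, was covered at 31.1%, 51.6%, 29.9%, 52.0% and 46.2%, and the genotypes did not overlap. Its difference was 19.5 points (SE 8.72), with an adjusted p of 1.00 in limma. C1QBP, a protein of the mitochondrial matrix, was covered at 25.9%, 56.0%, 0%, 22.4% and 11.9%, with overlap between the groups. RNF227 was covered at 42.7%, 58.9%, 19.1%, 42.1% and 31.9%, and LOC122526780, which lies under the second strongest region, at 86.2%, 99.0%, 75.5%, 90.5% and 91.9%. SCAN1 and WT overlapped for RNF227 and not for LOC122526780. LOC122526780 lies within the bounds of KIAA0753, and OR1R1 overlaps those of OR3A2. Signal in the shared bases cannot be assigned to either gene of such a pair. With the lists as deposited, 3 of the 6 turned in SCAN1#2, which then lay below WT by -0.991 points for C1QBP, -6.57 for RNF227 and -4.31 for OR1R1. As 2 of the 3 comparisons share the WT library of experiment 2, they are not independent.

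Ranked in the same way by their smallest deficit, the first genes were LOC124905375, TRPV1, NDEL1, GLP2R, NTN1 and PIK3R6. TRPV1 was covered at 3.15%, 0.792%, 4.06%, 2.42% and 1.02%, a difference of -2.19 points (SE 0.860) with an adjusted p of 1.00 in limma. NDEL1 (a dynein regulator), GLP2R (a gut hormone receptor), NTN1 (netrin, an axon guidance cue) and PIK3R6 (a regulatory subunit of phosphoinositide kinase) were covered below 2% in every library. They were below the filter and not tested, and with the lists as deposited NTN1 was 0.157 points above WT in SCAN1#2.

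By role, the genes fall into the lists that follow, whose averages were not compared by a test. Their counts of positive differences and medians include SCAN1#1, the line that chose the interval, so nothing is read from them. All 15 genes of the list for transcription, RNA processing and translation had a peak in at least 1 library and 13 in all 5. Within their bounds alone, 131 of the interval's 244 protein-coding genes had one in all 5. In a single library, 70.5% to 84.0% of the interval's protein-coding genes and 61.1% to 74.9% of all such genes had a peak. Nothing is read from the list's counts of peaks. Their coverage averaged 37.1%, 45.0%, 24.3%, 35.7% and 24.2% in the order above. None of the 14 tested passed in limma, 10 having a positive difference, with a median of 3.10 points. EIF5A, a translation factor gene, was covered at 82.3%, 83.0%, 73.9%, 79.3% and 66.8%. RNASEK was covered at 70.2%, 76.5%, 54.6%, 78.5% and 77.2%, with both genotypes apart. SENP3 and MYBBP1A, given above, were less even.

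The DNA repair, genome maintenance and chromatin list averaged 21.9%, 33.5%, 14.4%, 29.5% and 15.9% over 15 genes. The list as set also holds OVCA2, a serine hydrolase gene, and DPH1, a diphthamide synthesis gene. OVCA2 lies within the bounds of DPH1, so signal they share enters the average under both genes. In this list 0 of 13 tested passed in limma, 11 had a positive difference and the median was 5.71 points. HASPIN and WRAP53 were higher at an unadjusted p below 0.05 in limma, as were 1.95% of all genes tested. AURKB, a mitotic kinase gene, was covered at 54.8%, 67.4%, 48.4%, 61.1% and 29.5%. MNT, a repressor of the MYC network, was covered at 34.4%, 71.4%, 29.7%, 40.4% and 28.1%. For both SCAN1#1 exceeded WT in each experiment and SCAN1#2 was the lowest. PHF23 was covered at 94.2%, 93.8%, 71.8%, 71.7% and 58.8%, with SCAN1#1 level with WT. HIC1 had no peak in any library.

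The cytoskeleton, trafficking and signalling list averaged 35.8%, 42.1%, 20.7%, 30.2% and 18.7% over 15 genes, and 0 of 13 tested passed in limma, 9 having a positive difference with a median of 3.89 points. GABARAP, an autophagy gene, was covered at 92.8%, 100%, 47.8%, 48.2% and 40.5%. MYO1C was covered at 74.9%, 88.5%, 32.3%, 56.1% and 29.4%. For both genes the values of experiment 1 lay above all those of experiment 2. The mitochondrial and metabolic list averaged 38.1%, 46.8%, 20.5%, 31.7% and 23.3% over 11 genes, with 0 of 10 passing in limma and 8 positive. ACADVL, an enzyme of fatty acid oxidation, was covered at 77.9%, 92.1%, 61.1%, 71.0% and 53.0%. MPDU1 was covered at 80.0%, 100%, 59.8%, 66.2% and 43.2%, ENO3, muscle enolase, at 89.6%, 97.9%, 30.1%, 53.4% and 31.2%, and SLC25A11, a mitochondrial carrier, at 80.9%, 79.4%, 34.1%, 62.8% and 42.2%.

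Most genes restricted to other tissues were covered at a few percent or less. Of 10 olfactory receptor genes, 7 had no peak in any library, OR1D2 and OR1D5 among them, and the list averaged at most 1.20%. Within their bounds, 38 of the interval's 244 protein-coding genes had no peak in any library. OR1R1, also an olfactory receptor gene, was not in this list and was covered at up to 51.1%, as given above. OR3A2 was covered at 3.35%, 7.14%, 1.79%, 10.2% and 1.11%, and its bounds span 110 kb. The 5 lipoxygenase genes averaged at most 2.37%, and ALOX12, the only one tested, was covered at 0%, 9.46%, 1.98%, 3.71% and 1.69%. Among the 15 lineage-restricted genes, CD68 was covered at 89.8%, 94.2%, 92.6%, 93.3% and 57.5%, within the strongest region, and the median gene at 1.34% to 2.42%. ASGR1, a hepatocyte receptor, was covered at 32.0%, 42.5%, 32.0%, 50.5% and 31.0%, GP1BA, a platelet receptor, at 38.8%, 62.0%, 0%, 14.9% and 1.52%, and DLG4, a postsynaptic scaffold, at 26.7%, 42.3%, 5.47%, 18.5% and 6.51%. In limma 0 of 8 lineage-restricted genes tested passed.

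Markers outside the interval were read as a check of the cell type, with the lists as deposited. Of 7 osteoblast and mesenchymal genes, 6 had a peak in all 5 libraries, with COL1A1 covered at 21.0% to 72.9% and VIM at 34.5% to 48.6%. SPARC was covered at 16.3% to 42.9% and THY1 at 17.2% to 51.1%, while FN1 was covered at 0.512% to 4.63% and RUNX2 at 0.806% to 2.62%. COL1A2 was at 0 in all but SCAN1#2. Among markers of other lineages, CD3E, ALB and APOA1 were at 0 in every library. The epithelial markers KRT8, EPCAM and CDH1 were covered at 22.0% to 27.3%, 6.72% to 9.72% and 0.809% to 5.03%, so coverage does not set the lineages apart marker by marker. Of the blood markers, PTPRC reached 0.576% and SPI1 6.74%. Coverage by DRIP peaks is no level of RNA.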

How the data were processed

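DRIP-seq was measured in 5 libraries of U2OS cells, and the 5 input samples were not analysed here. Tools named in the submitters' processing notes are MACS3 3.0.0a6, deepTools 3.5.1, SAMtools 1.9, BWA 0.7.17-r1188 and FastQC 0.11.5, with hg38 as the build and no roles. Each library has 1 peak list, whose control and calling options were not given in the sources used here. Per the layout of the deposited files, a peak has a score (10 times its -log10 q), a fold enrichment (a ratio over the caller's background), a -log10 p and a -log10 q. Deposited -log10 q values began at 2.00 to 2.01. Read depth is unknown, so precision is given only for counts of regions.

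Peaks were merged across libraries, and shares of peak bases were computed in bins and windows, leaving out bins with fewer than 10 peaks on average. Fold enrichment was used within its list only. Genes and promoters came from RefSeq tables on GRCh38.p14 (59098 genes, 19974 protein-coding), which hold no exons. Gene coverage from lists of equal length was tested with limma 3.58.1 in R 4.3.3 (lmFit, eBayes with trend, Benjamini-Hochberg), and gene-end shares with an exact permutation test. The limma code was first run on simulated data with independent noise of reduced spread and no pairing of libraries. That run checks the code and gives no power for these data. The other tools were matplotlib 3.10.9, scipy 1.17.1, pandas 2.3.3 and numpy 2.4.6 in Python 3.11.15. Alternatives were other peak lists, thresholds, merging distances, interval ends, scales and filters, the block and each library left out.

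The interval and the gene lists were chosen with earlier results of these data known. Named genes were the 6 of highest mean coverage and the 8 of largest difference each way between the lines in experiment 2. Also named were the 6 each way whose smallest difference from WT was largest, with the same sign in every comparison within experiments. Added to these were 2 to 4 members of each of 7 lists, and OVCA2. A single gene of the marker lists is not reported here. Named regions were the 6 of highest mean fold enrichment and the 6 widest with a peak in both SCAN1#1 libraries and none in SCAN1#2, and named bins the 3 highest and lowest in the line contrast. Genes past an unadjusted p, small RNA genes and the 500 kb steps were chosen after their values were seen. Replicate numbers in the labels are those of the experiments and therefore pair the libraries. Deviations from the group means correlated by 0.612 for WT and SCAN1#1 in experiment 1, and in experiment 2 by 0.325 for WT and SCAN1#1 and 0.470 for WT and SCAN1#2. Deviations cancel out within a group, so these correlations are not independent of each other.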

Additional observations from a re-analysis of the deposited data

Results flagged for a closer look

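The lines lay on opposite sides of WT in several values, a difference that was not tested, as SCAN1#2 has 1 library and the interval was chosen for the difference between the lines. For the share of the interval's peak bases, the log2 ratio to WT was -0.02 in SCAN1#2 and 0.65 and 0.73 in SCAN1#1. With lists of equal length the SCAN1#2 value was 0.06, so its side of WT turned. The ratio was -0.13 in SCAN1#2 against 1.07 and 1.01 in SCAN1#1 in the third megabase, -0.22 against 0.90 and 1.07 in the sixth, -0.11 against 0.88 and 0.56 in the seventh, and -0.10 against 0.51 and 0.48 in the eighth.

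Among the named genes, coverage in SCAN1#2 differed from WT by -37.7 percentage points for SENP3, where SCAN1#1 differed by 6.56 and 25.6. For CLUH the difference was -23.4 against 28.7 and 20.6, and for PIMREG -20.4 against 12.9 and 21.8. For SOX15 it was -16.1 against 1.38 and 14.8, and for TMEM88 -10.5 against 8.11 and 11.8. For DVL2 it was -1.64 against 7.34 and 45.2, and for KCTD11 -0.690 against 15.0 and 57.1. With the lists as deposited the SCAN1#2 difference turned to 6.21 for KCTD11 and kept its sign for the other 6 genes.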

How the results depend on the processing

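The line contrast over the interval kept its direction, at -0.73 to -0.81 on the log2 scale under equal lists, a stricter -log10 q of at least 5, and ends at 9 or 11 Mb, and was -1.34 with SCAN1#1 of experiment 1 in place of experiment 2. With -log10 q of at least 5, regions numbered 351 in WT and 431 in SCAN1#1 of experiment 1, and with lists of equal length 285 in WT and 498 in SCAN1#1 of experiment 2. The cause was not tested beyond the smaller number of peaks kept. The gene-end difference was -2.52 to 0.839 points when each library was left out in turn, with the sign turned without WT of experiment 2 (0.0170) and without SCAN1#1 of experiment 2 (0.839). With the experiment as a replicate block it was -0.839. The count of genes passing in limma was 0 over all genes and in the interval with the replicate block, with SCAN1#1 alone and the block, and with each library left out, and it was 4 over all genes on the log2 scale, with 0 in the interval. The block changed no call. How far depth limits these values is unknown, as the lists carry no read counts.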
